A study of Mus musculus with 2 samples.

Results

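Cycling macrophages of the MC38 tumour, macrophages caught with transcripts of the division machinery, are described here from single-cell RNA counts. They were chosen on unique molecular identifiers (UMIs, each counting 1 captured RNA molecule) per cell. A cell needed at least 500 UMIs with at most 10% of them mitochondrial, at least 1 UMI of Csf1r and 2 of Lyz2, and together at least 3 UMIs of Mki67, Top2a, Birc5 and Pclaf. It also had to hold no UMI of Cd3d, Cd3e, Cd3g or Ncr1, which mark T and natural killer (NK) cells, and at most 1 of Sparc and Sox9, which mark non-immune cells. By this rule 2110 of 69306 cell barcodes were cycling macrophages, 1911 of 34310 in the control library (Ctrl) and 199 of 34996 in the treated library (BiDT). The tumours grew from MC38, a mouse colon carcinoma line, and were taken 19 days after inoculation. From the digested tissue, living leukocytes were sorted by their CD45, and each group's single library pools 5 biological replicates. Both libraries are of batch 1. The labels name the treatment only as BiDT, and the series title speaks of an antibody against TIM3 fused to an interferon. The strain, sex and age of the mice, the dose and what the control mice received are not given in the sources used here. With 1 pooled library a group the spread between mice is unknown. No difference was tested, and every interval is a 95% interval that covers counting error only.

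Macrophages of a tumour come from blood monocytes that mature there and from cells that divide in place. Signalling through the CSF1 receptor, the product of Csf1r, sustains their survival and can drive their division. A cell that commits to division loads the MCM helicase on its DNA, copies the DNA with the nucleotides made by enzymes such as ribonucleotide reductase, and then builds a spindle under the control of cyclin-dependent kinase 1. Genes of DNA replication are commonly driven by E2F factors, and genes of mitosis by the DREAM and MuvB complexes, which bind a short promoter element called CHR, often together with CCAAT boxes bound by NF-Y. Type I interferons act through the factor ISGF3, which binds an element called ISRE, and are known to restrain the division of many cell types.

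The promoters of the gene groups that carry the results differed in these elements. The 5 printed here are shown since each comes from a gene whose values are given later: Cdc20 and Cdk1 of mitosis, Mcm6 of replication, and Ifit1 and Ifit3 of the interferon response. Each line gives the 150 bases before the gene's start, 5′ to 3′ on the gene's own strand, from the RefSeq promoter table (build GRCm38.p6). The capitals mark CHR and CCAAT matches in Cdc20 and Cdk1, E2F matches in Mcm6 and ISRE matches in both Ifit genes, on either strand. Cdc20 lies at chr4:118437344-118437493, minus strand.
Cdc20: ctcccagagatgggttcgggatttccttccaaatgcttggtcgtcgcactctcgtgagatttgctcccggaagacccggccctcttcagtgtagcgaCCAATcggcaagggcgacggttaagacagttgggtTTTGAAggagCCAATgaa
Cdk1 lies at chr10:69352913-69353062, minus strand.
Cdk1: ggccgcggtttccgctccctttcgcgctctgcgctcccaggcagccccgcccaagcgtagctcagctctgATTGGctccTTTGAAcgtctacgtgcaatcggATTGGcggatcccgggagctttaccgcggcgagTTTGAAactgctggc
Mcm6 lies at chr1:128359706-128359855, minus strand, and the first of its capital runs holds overlapping matches on opposite strands.
Mcm6: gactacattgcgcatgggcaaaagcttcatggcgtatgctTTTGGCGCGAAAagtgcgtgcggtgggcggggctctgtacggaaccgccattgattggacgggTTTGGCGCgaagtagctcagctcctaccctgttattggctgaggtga
Ifit1 lies at chr19:34640739-34640888, plus strand.
Ifit1: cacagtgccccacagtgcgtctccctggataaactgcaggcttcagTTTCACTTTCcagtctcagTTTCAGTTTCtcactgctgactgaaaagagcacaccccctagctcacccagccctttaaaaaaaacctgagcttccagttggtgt
Ifit3 lies at chr19:34583379-34583528, plus strand.
Ifit3: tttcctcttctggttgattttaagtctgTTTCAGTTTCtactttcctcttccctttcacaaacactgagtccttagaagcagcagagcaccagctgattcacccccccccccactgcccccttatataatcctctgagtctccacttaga

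Motifs were searched on both strands of windows from 250 bases before to 50 after the start. The letters were TTTGAA or TTCGAA for CHR, CCAAT for its box, and for ISRE 2 copies of GAAA with any 2 bases between them. For E2F they were TTTCCCGC, TTTCGCGC, TTTGCCGC or TTTGGCGC, and matches of these may overlap. A gene was counted if any of its windows held a match. Of 89 mitotic genes 74 had a window, and 52 of these (70.3%) held a CHR match, against 21.7% of all 27025 genes with a window. CHR and CCAAT stood together in a window of 58.1% of the mitotic genes and of 8.61% of all. An E2F match was found for 18 of 45 replication genes (40%), for 6.76% of the mitotic genes and for 2.61% of all. Of 39 interferon list genes with a window, 19 (48.7%) held an ISRE match, against 3.99% of all. A match is a description of these letters and not evidence of a bound site.

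Depth and carried RNA differed between the libraries and touch every comparison. Ctrl held 211047063 UMIs at a median of 4126 per barcode, and BiDT 130313537 at 2652. Cycling macrophages were deeper than the cells around them, with a median of 11543 UMIs in Ctrl and 7358 in BiDT, against 5023 and 4078 in macrophages that had no UMI of the 4 cycle genes, called non-cycling here (8897 and 4227 cells). RNA of lymphocytes was present in many of the selected BiDT cells although Cd3 genes and Ncr1 were at 0 by the rule. At least 3 UMIs of 30 T, NK, B and plasma cell markers were found in 122 of the 199 BiDT members (61.3%, exact interval 54.2 to 68.1%) and in 204 of the 1911 Ctrl members (10.7%, 9.33 to 12.2%). The shares in non-cycling macrophages were 21.7% and 4.59%, at their lower depth. A doublet score of at least 0.15 was reached by 33.6% of the BiDT members with such RNA and by 6.49% of those without. The BiDT members with at most 2 of these UMIs number 77 and the Ctrl ones 1707. They are called lymphocyte-poor, they were set apart after the data had been seen, and values in them are given beside the shares and the gene lists. The part of lymphocyte RNA, of doublets and of depth in the differences was not tested. The libraries shared 713 barcodes, and none of these was a member in both.

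The selected cells also held RNA of macrophage genes that the rule had not used. Levels are given as CPM, with the UMIs of a gene summed over the members of a library and scaled to a fixed total of 1e6 UMIs. Adgre1, the gene of F4/80, stood at 109 CPM in Ctrl and 116 in BiDT. Cd68, a lysosomal glycoprotein of macrophages, stood at 292 and 255 CPM. Mertk, a receptor for apoptotic cells, stood at 44.0 and 42.7 CPM. These 3 genes lay close together in both libraries, while of the whole list of 22 identity genes 3 were called higher and 6 lower in BiDT. Neutrophil markers summed to 243 and 153 CPM over 9 genes, below the 606 and 539 CPM of non-cycling macrophages. The 12 dendritic cell markers summed to 302 and 1326 CPM, of which Bst2, an interferon-induced gene, made up 242 and 1216. T cell markers summed to 26.5 and 177 CPM and NK markers to 77.3 and 1578 CPM, the latter beside 6831 and 9131 CPM in gated NK cells. In lymphocyte-poor members the NK sum was 26.7 and 92.2 CPM. The 8 B and plasma cell markers summed to 5.47 and 439 CPM, and the non-immune markers to 60.9 and 95.1. Mzb1 of plasma cells, Ly6g of neutrophils and Krt8 of epithelia were at 0 UMIs in the members of both libraries.

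The 4 selecting genes are Mki67 (the Ki-67 antigen, a coat of mitotic chromosomes), Top2a (topoisomerase II, which untangles DNA), Birc5 (survivin, of the chromosomal passenger complex) and Pclaf (a PCNA-associated factor). Members held a median of 12 UMIs of them in Ctrl and 5 in BiDT. Exactly 3, just inside the threshold, were found in 249 Ctrl members (13%) and 63 BiDT members (31.7%). Just outside it, with 2 UMIs, lay 692 and 222 cells. At least 12 were found in 984 Ctrl members (51.5%) and 55 BiDT members (27.6%), so BiDT members lay nearer to the threshold. As a description of what the threshold separates, 56 other genes of replication and 89 of mitosis were summed per 10000 UMIs of a cell. The median was 21.4 in cells with none of the selecting UMIs, in either library. It was 26.1 (Ctrl) and 25.6 (BiDT) in cells with 2, 32.5 and 31.5 in cells with 3, 77.5 and 77.6 with 4 to 11, and 168 and 172 with at least 12. Within each of these classes both libraries had nearly the same level. Over all members the median was 124 (quartiles 59.2 and 175) in Ctrl and 73.8 (33.1 and 146) in BiDT, and among lymphocyte-poor members 125 and 46.6. Among members with at least 3 lymphocyte marker UMIs it was 115 and 88.6.

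**Figure D1:**
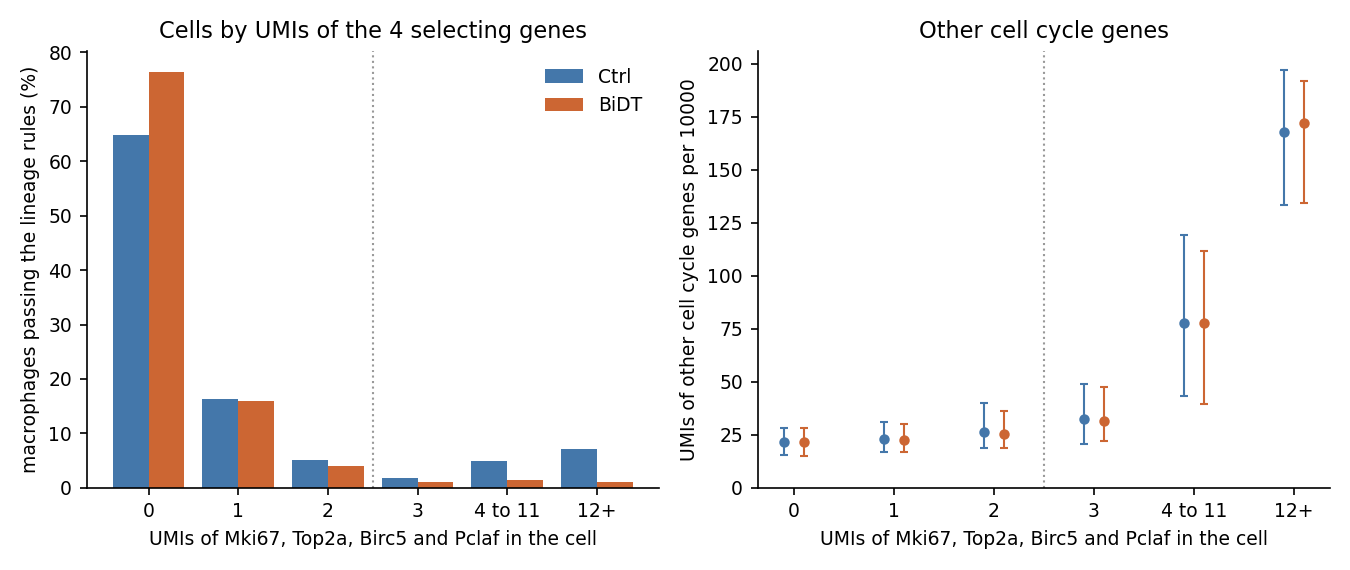
Left, the percentage of macrophages passing the lineage rules, by their UMIs of the 4 selecting genes, in Ctrl and BiDT. Right, UMIs of the other replication and mitotic genes per 10000 UMIs of the cell, with points at medians and bars at quartiles; the medians of both libraries lie close together in each class, from 21.4 to 168 in Ctrl.

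Cycling cells made up a smaller share of the macrophages in BiDT. Of cells with at least 1 UMI of Csf1r and 2 of Lyz2, 1911 of 16043 were cycling in Ctrl (11.9%, exact interval 11.4 to 12.4%) and 199 of 6867 in BiDT (2.90%, 2.51 to 3.32%). The log2 ratio of BiDT over Ctrl was -2.04 (-2.25 to -1.83), a 4.11-fold lower share. A further 680 Ctrl and 261 BiDT macrophages had at least 3 cycle gene UMIs but failed the lineage exclusions. They count here as not cycling, and in BiDT they outnumber the 199 members. Their part in the ratio was not tested. With the exclusions applied to all macrophages, the shares were 13.9% and 3.60%, a log2 ratio of -1.95. Because deeper cells pass a UMI threshold more easily, each cell was also thinned at random to 2000 UMIs, which left out 763 Ctrl and 617 BiDT macrophages of lower depth, and the whole rule was applied anew to the thinned counts. At this equal depth 517 of 8711 Ctrl macrophages (5.94%, 5.45 to 6.45%) and 38 of 3203 BiDT macrophages (1.19%, 0.841 to 1.63%) were cycling, a log2 ratio of -2.32 (-2.79 to -1.85). Thinned to 4000 UMIs instead, the log2 ratio was -1.99.

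The direction was the same in lymphocyte-poor cells and in each class of depth. Among lymphocyte-poor macrophages 12% were cycling in Ctrl (1707 of 14167) and 1.69% in BiDT (77 of 4556), a log2 ratio of -2.83 (-3.16 to -2.51). At equal depth these shares were 5.63% and 0.490%, the latter 11 of 2244 cells, a log2 ratio of -3.52 (-4.38 to -2.66). For these shares and those by state, lymphocyte marker UMIs were counted before thinning, so this filter was not applied at equal depth. Members with at least 3 such UMIs were deeper than lymphocyte-poor ones. Their medians were 16198 and 10983 UMIs in Ctrl, and 8331 and 6501 in BiDT. Grouped by their own depth, macrophages of 2000 to 4000 UMIs were cycling in 3.79% of Ctrl and 0.738% of BiDT cells. Those of 4000 to 8000 UMIs were cycling in 7.57% and 3.27%, those of 8000 to 16000 in 17.6% and 6.09%, and those of 16000 to 32000 in 33% and 9.64%. Below 2000 UMIs the shares were 1.84% and 0.810%, and the interval of their log2 ratio, -2.64 to 0.29, includes 0. In the 5 classes of depth the log2 ratio ran from -2.36 to -1.18, and in 4 of them it was nearer to 0 than the ratio over all macrophages. Cells of 32000 UMIs or more were in no class. With at least 12 selecting UMIs required, a threshold added after the data had been seen, the shares were 6.13% and 0.801%.

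**Figure D2:**
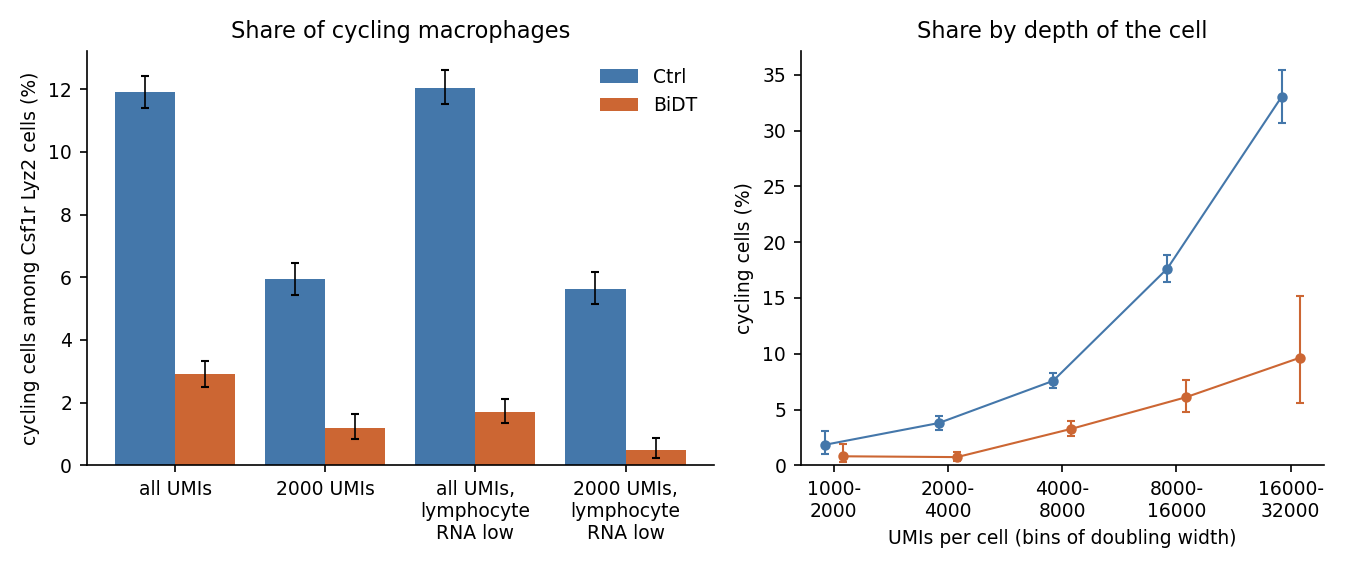
Left, the percentage of cells with Csf1r and Lyz2 that were cycling, over all UMIs, with each cell thinned to 2000 UMIs, and in cells with at most 2 lymphocyte marker UMIs. Right, the same percentage by the depth of the cell; bars are exact 95% intervals, and BiDT lies below Ctrl in every pair, for example 2.90% against 11.9%.

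Lymphocytes of the same libraries had the opposite difference. At 2000 UMIs, at least 3 UMIs of the 4 cycle genes were found in 21.7% of Ctrl and 37.9% of BiDT CD8 T cells, gated by Cd3 and Cd8 genes. The log2 ratio was 0.80 (0.62 to 0.99). NK cells, gated by Ncr1, stood at 13.7% and 23.3%. Dendritic cells, gated by Flt3, stood at 6.75% and 7.78%, with a log2 interval of -0.98 to 1.38 that includes 0. Non-immune cells, gated by Sparc and Sox9, were also lower in BiDT, at 30.3% and 23.6% (log2 -0.36, -0.61 to -0.10). Neutrophils, which as mature cells do not divide, stood at 1.82% (3 of 165 cells, exact interval 0.377 to 5.22%) in Ctrl and 2.06% (5 of 243, 0.671 to 4.74%) in BiDT. Free RNA and misassigned cells can give such UMIs, and their part was not tested. The cycling share of BiDT macrophages, 1.19%, lies within the BiDT neutrophil interval and cannot be told apart from that level, and the 5.94% of Ctrl macrophages lies above the Ctrl one. The measures are not the same, however. Shares of the other classes count every gated cell with at least 3 cycle gene UMIs, without the lineage exclusions of the macrophage rule. Without thinning the neutrophil shares were 3.57% and 3.89% at median depths of 2094 and 2085 UMIs.

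The macrophage states in which cycling cells were found differed between the libraries. In Ctrl they were concentrated among cells with at least 5 UMIs of C1qa, C1qb and C1qc, the complement C1q chains made by mature macrophages. At 2000 UMIs 12.1% of C1q-positive Ctrl macrophages were cycling (397 of 3294) and 2.22% of C1q-negative ones. In BiDT the shares were 1.49% (15 of 1010) and 1.05%. The log2 ratio of BiDT over Ctrl was thus -3.02 (-3.76 to -2.28) in C1q-positive and -1.08 (-1.72 to -0.44) in C1q-negative cells, and -4.00 and -2.37 in lymphocyte-poor ones. Thinned to 4000 UMIs the ratio was -2.80 in C1q-positive cells, and in C1q-negative cells it was -0.22 with an interval of -0.65 to 0.22, which includes 0. Both BiDT shares at 2000 UMIs lie within the BiDT neutrophil interval given above, 0.671 to 4.74%. The C1q-negative Ctrl share lies within the Ctrl one, 0.377 to 5.22%. The ratios therefore cannot say by how much division differed within a state. A test of the difference between these ratios was not possible with 1 library a group.

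The shares by other markers were as follows. Arg1, the arginase of alternatively activated macrophages, divided them into positive cells with 7.27% cycling in Ctrl and 0.540% in BiDT and negative cells with 3.83% and 1.74%, so that in BiDT the negative cells had the higher share. Mgl2, the lectin CD301b, gave 11.2% and 1.54% in positive and 3.96% and 1.15% in negative cells. Thinned to 4000 UMIs, the log2 ratio moved from -3.75 to -2.72 in Arg1-positive and from -2.87 to -1.66 in Mgl2-positive cells. Cells positive for MHC class II genes stood at 6.69% and 1.52%, and negative ones at 4.17% and 0.888%, with nearly equal log2 ratios of -2.14 and -2.23. Ccr2, a monocyte chemokine receptor, likewise gave -2.35 in positive and -2.37 in negative cells. Thinned to 4000 UMIs, the ratios were less alike, -1.89 and -1.49 for MHC class II and -1.70 and -2.40 for Ccr2, positive cells first. In lymphocyte-poor cells the ratios were -5.22 and -2.24 for Arg1, -3.60 and -3.08 for Mgl2 and -3.09 and -3.95 for MHC class II, positive cells first. Ly6c2 marks cells recently derived from monocytes. In Ctrl 0.799% of Ly6c2-positive macrophages were cycling and 7.01% of the negative ones. In BiDT the shares were 1.02% and 1.30%. By these shares Ly6c2-positive cells were the single state without a lower BiDT share (log2 ratio 0.35, interval -0.78 to 1.48). The sign was not kept at 4000 UMIs, where the log2 ratio of Ly6c2-positive cells was -0.0047 (-0.58 to 0.57). Among lymphocyte-poor cells 1 of 868 Ly6c2-positive BiDT cells was cycling, a log2 ratio of -2.78 (-5.73 to 0.17).

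Read from the cycling cells, 76.8% in Ctrl were C1q-positive, against 33.1% of non-cycling macrophages at the same depth. Ly6c2-positive cells were 2.32% of the cycling and 19.5% of the non-cycling ones, and Mgl2-positive cells 51.5% and 25%. In BiDT only 38 cells were cycling by the rule applied anew to the thinned counts. A cell excluded at full depth could pass if thinning removed its UMIs of the excluding genes, so these 38 need not all be members. Of these 39.5% were C1q-positive, beside 31.0% of non-cycling macrophages, and 34.2% were Ly6c2-positive, beside 40.3%. Among the 11 lymphocyte-poor ones, 5 were C1q-positive (45.5%) and 1 was Ly6c2-positive (9.09%, exact interval 0.230 to 41.3%), beside 39.6% of non-cycling cells. The macrophages of the libraries also differed in make-up, so the BiDT share was recomputed with the Ctrl proportions of 8 strata formed by C1q, MHC class II and Ly6c2. It was then 1.43%, against 1.19% as measured and 5.94% in Ctrl. The share was lower in BiDT in 7 of the 8 strata, the smallest of which held 23 Ctrl and 79 BiDT cells. The exception was the stratum with Ly6c2 alone, at 0.413% in Ctrl and 1.07% in BiDT.

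**Figure D3:**
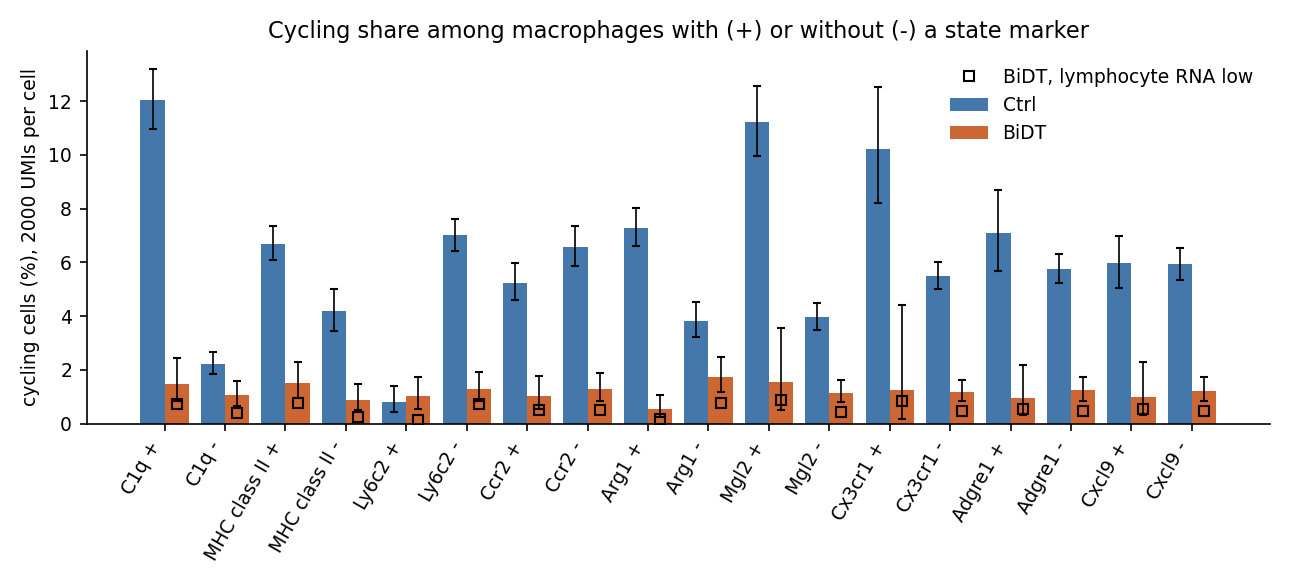
Percentage of cycling cells among macrophages with (+) or without (-) each state marker, every cell thinned to 2000 UMIs, in Ctrl and BiDT with exact 95% intervals. C1q-positive Ctrl cells stand at 12.1% and C1q-positive BiDT cells at 1.49%, and the Ly6c2-positive pair, at 0.799% and 1.02%, is the single one in which BiDT is not lower.

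Against non-cycling macrophages of the same library, the cells carried the cell cycle programme as the rule had asked for, so the values that follow are descriptions and support nothing. All compared cells were thinned to 2000 UMIs, 1897 cycling and 8310 non-cycling in Ctrl and 194 and 3748 in BiDT. A gene is called higher or lower at a ratio of at least 1.5-fold with at least 50 UMIs. Of all genes 16.8% were called higher and 8.11% lower in Ctrl, and 18.6% and 14.7% in BiDT, where fewer cells widen the scatter. In lymphocyte-poor BiDT cells the shares were 21.3% and 19%. Of the measured licensing genes, 19 of 19 were higher in Ctrl, at a median log2 ratio of 2.46, and 12 of 12 in BiDT (2.08). Mcm5, a subunit of the replicative helicase, stood at 80.4 CPM in cycling and 9.57 CPM in non-cycling Ctrl cells. The DNA synthesis list was higher for 36 of 36 genes in Ctrl and 23 of 24 in BiDT. In lymphocyte-poor BiDT cells 10 of 12 licensing genes (median 1.75) and 14 of 16 synthesis genes (1.06) were higher. Rrm2, the small subunit of ribonucleotide reductase, had log2 ratios of 4.83 in Ctrl and 3.60 in BiDT.

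In Ctrl the mitotic lists reached larger ratios than the replication lists. Mitotic kinases and cyclins were higher for 28 of 29 genes in Ctrl (median 4.17) and 9 of 11 in BiDT (1.41, below the licensing median there). Plk1, the polo-like kinase, stood at 47.2 CPM in cycling and 0.963 CPM in non-cycling Ctrl cells, and Ccna2, cyclin A, at 143 and 3.79 CPM. Centromere and kinetochore genes were higher for 25 of 25 in Ctrl (median 3.99) and 6 of 6 in BiDT (3.35). Spindle and cytokinesis genes were higher for 33 of 33 (4.23) and 18 of 18 (3.61). Both BiDT medians lay above those of licensing and synthesis genes there (2.08 and 2.02). In lymphocyte-poor BiDT cells 4 of 7 mitotic kinase genes were higher (1.07), 2 of 3 centromere genes (2.15) and 8 of 11 spindle genes (1.75). Of the G1/S control list, 15 of 23 genes were higher in Ctrl and 8 of 18 in BiDT, where 1 was lower. Among lymphocyte-poor BiDT cells 4 of 16 were higher and 5 lower. Ccnd1, cyclin D1, differed little (log2 0.20 and -0.04), while Cdkn2c, the inhibitor p18, was higher in cycling cells (2.88 and 3.66). Cdkn1a, the inhibitor p21, stood lower in cycling cells, at log2 ratios of -0.40 and -0.54, within the threshold of 1.5-fold in both.

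Outside the cell cycle, growth genes were higher and monocyte and interferon genes lower in the cycling cells of Ctrl, with smaller differences in BiDT for the latter lists. Of 30 genes of ribosome biogenesis and growth, 18 were called higher in Ctrl and none lower (median 0.66). Ran, the transport GTPase, stood at 625 CPM in cycling and 273 CPM in non-cycling Ctrl cells, and Myc, the growth regulator, had log2 ratios of 0.70 in Ctrl and 1.33 in BiDT. In BiDT 17 of 28 were higher (0.75), and 9 of 27 in lymphocyte-poor cells. Sterol synthesis genes were higher for 15 of 24 in Ctrl (0.76) and 5 of 16 in BiDT (0.48). Fdps, farnesyl diphosphate synthase, stood at 144 and 69.6 CPM in Ctrl. Monocyte genes were lower for 13 of 20 in Ctrl (median -1.01) and for 7 in BiDT, where 2 were higher (-0.44). Ly6c2 stood at 74.6 CPM in cycling and 494 CPM in non-cycling Ctrl cells, a log2 ratio of -2.73, and its ratio in BiDT was -0.33. C1qa stood at 2044 and 808 CPM in Ctrl (1.34), and its BiDT ratio was 0.42.

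The type I interferon list was lower in the cycling cells of Ctrl. There 37 of 45 measured genes were called lower and none higher (median -1.08), beside 8.11% of all genes. In BiDT 10 of 46 were lower (-0.33), and 7 lower and 1 higher among lymphocyte-poor cells (-0.19), near the 14.7% and 19% of all genes lower there. Isg15, a ubiquitin-like modifier, stood at 134 CPM in cycling and 307 CPM in non-cycling Ctrl cells. Rsad2, viperin, had log2 ratios of -2.06 in Ctrl and -0.72 in BiDT. The list of interferon-induced and other growth-restraining genes was lower for 17 of 28 in Ctrl (-0.81) and 12 in BiDT (-0.41). Inflammatory genes were lower for 12 of 24 and 10 of 23. Il1b, the cytokine, stood at 3037 CPM in cycling and 6231 CPM in non-cycling Ctrl cells. Of the growth factor axis, 7 of 24 genes were lower in Ctrl and 10 of 21 in BiDT, and Csf1r itself, which the rule used in both classes, had ratios of -0.47 and -0.61. MHC class II genes passed the threshold in neither direction in Ctrl.

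Genes outside the cell cycle lists that were farthest apart in both libraries were taken by a rule on the smaller of both ratios. The highest were Knstrn (log2 4.40 in Ctrl and 3.84 in BiDT) and Tacc3 (4.05 and 3.61), both of the mitotic spindle. They were followed by Ccdc34, Cbx5 (heterochromatin protein 1 alpha), Pmf1 of the kinetochore, Selenoh, Fcrls, Arhgap11a, Dctpp1 (a nucleotide pool phosphatase) and Tipin of the replication fork. Fcrls, a receptor-like gene of macrophages and microglia, had ratios of 1.94 and 2.5. The lowest were Cd36 (the scavenger receptor, -1.25 and -1.26), Ly6i (-2.05 and -1.23), Gsr, Inhba, Srgn, Thbs1, Bach1, Smox, Tgm2 and Gpat3. Inhba, the activin A subunit, stood at 387 CPM in cycling and 1174 CPM in non-cycling Ctrl cells.

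**Figure D4:**
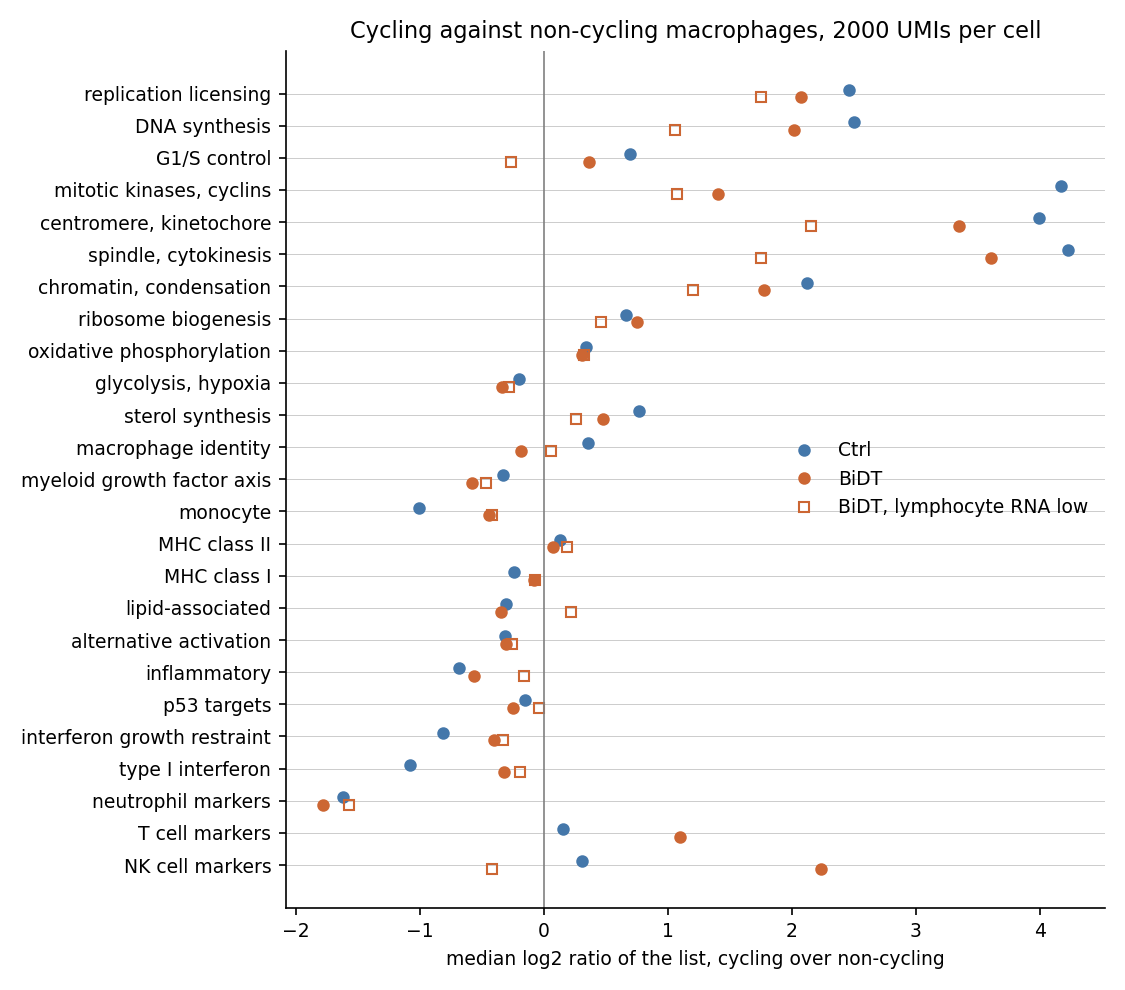
Median log2 ratio of cycling over non-cycling macrophages for each gene list, every cell thinned to 2000 UMIs, in Ctrl, BiDT and lymphocyte-poor BiDT cells. The lists of replication and mitosis lie to the right (licensing 2.46 in Ctrl) by the rule's own construction, and monocyte (-1.01) and type I interferon genes (-1.08) lie to the left in Ctrl.

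The remaining comparison is of cycling macrophages of BiDT with those of Ctrl, over 25948085 Ctrl and 1778003 BiDT UMIs. Of 11104 measured genes 1821 were at least 1.5-fold higher in BiDT (16.4%) and 1430 lower (12.9%), and the median log2 ratio over all of them was 0.03. In non-cycling macrophages the shares were 12.6% and 7.24%, and in lymphocyte-poor cycling ones 19% and 17.6%. TMM scaling, which trims the most deviant genes before setting the totals, lowered every log2 ratio by a shift of -0.17 in cycling macrophages and -0.13 in non-cycling ones, and with it 1321 genes were higher and 2089 lower in the cycling cells, so the balance of higher and lower genes turned with the scaling. The counts of list members are to be read against these shares.

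Interferon-induced genes were higher throughout. All 46 measured genes of the type I interferon list were called higher in BiDT, at a median log2 ratio of 2.70, and all 46 in lymphocyte-poor (2.96) and in non-cycling cells (2.21). Isg15 stood at 113 CPM in Ctrl and 1304 in BiDT (log2 3.53, 3.45 to 3.61). Irf7, a factor that amplifies the response, stood at 41 and 644 CPM (3.97). Among the 12 genes with the highest ratios, 8 were interferon-induced. Ifit1 and Ifit3, whose promoters are shown above and whose proteins act against viral RNA, had 6.90 and 6.55 CPM in Ctrl and 237 and 269 CPM in BiDT. Rsad2 stood at 24.8 and 875 CPM (5.14, 5.01 to 5.28), with a ratio of 3.79 in non-cycling cells. Slfn4, a myeloid schlafen gene, stood at 16.2 and 845 CPM (5.71). The others were Ifit1bl1 (6.25), Ifit3b (6), Ifi44 (5.79) and Cmpk2, a nucleotide kinase (4.86). In lymphocyte-poor members the log2 ratios of these 8 genes ran from 5 to 6.31. Ifit3 and Ifit3b are near-identical copies, and how reads were split between them is not known.

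The other 4 of the highest 12 were lymphocyte genes. Jchain, of secreted antibodies, stood at 1.93 CPM in Ctrl and 434 in BiDT, with 771 UMIs in 6.03% of the BiDT members. In lymphocyte-poor members it had 1 BiDT UMI. The cytotoxic genes Gzma (log2 5.18), Gzmb (5.06) and Prf1 (4.73) had ratios of 2.43, 2.82 and 1.74 in lymphocyte-poor members, which were defined by these same genes.

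Genes linked to growth restraint were higher as well. Of 28 measured members 21 were called higher and none lower (median 1.42), and 20 were higher in lymphocyte-poor and 21 in non-cycling cells. Slfn2, a schlafen gene that holds immune cells in quiescence, stood at 362 and 862 CPM (log2 1.25). Samhd1, which breaks down deoxynucleotides, stood at 322 and 651 CPM (1.01), and Ifi204, a p200-family gene, at 99.1 and 481 CPM (2.28). Irf1 had a ratio of 1.52. Some members differed little. Btg1, an antiproliferative gene, stood at 1182 and 1565 CPM (0.41), and Cdkn1a at 1107 and 1086 (-0.03, interval -0.09 to 0.04). Of the p53 list 3 of 20 genes were higher and none lower.

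Antigen presentation genes went in opposite directions. MHC class I genes were higher for 15 of 22 and lower for none (median 0.83; lymphocyte-poor 0.95). H2-K1, a class I heavy chain, stood at 1894 CPM in Ctrl and 4509 in BiDT, a log2 ratio of 1.25 (1.22 to 1.29). MHC class II genes were lower for 6 of 13 and higher for none (-0.51). H2-Eb1 had a ratio of -1.03 (-1.08 to -0.97), and Cd74, the invariant chain, of -0.67. Among lymphocyte-poor members 3 class II genes were lower and 1 higher, and in non-cycling macrophages 11 of 14 were lower (-0.90).

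Sterol synthesis genes were lower in BiDT almost without exception. Of 24 measured genes 23 were called lower and none higher (median -1.64), 22 in lymphocyte-poor (-1.60) and 22 in non-cycling cells (-1.24). Sqle, squalene epoxidase, stood at 71.6 CPM in Ctrl and 9.56 in BiDT (log2 -2.90, -3.69 to -2.22). Fdps stood at 162 and 24.2 CPM (-2.74). Idi1 (-2.17), Cyp51 (-2.15) and Hmgcs1 (-2.07) were also among the 12 lowest genes. The regulator Srebf2 had a ratio of -0.97. The measured gene not called was Ebp, at -0.46.

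Of the lowest 12 genes, 6 served other functions. Ccl17 and Ccl24, chemokines of alternatively activated myeloid cells, had 303 and 255 CPM in Ctrl and 41.6 and 36.6 CPM in BiDT (log2 -2.86 and -2.80). Ccl24 had a ratio of -2.35 in lymphocyte-poor members and of -0.21 in non-cycling macrophages. Ctsk, the protease cathepsin K, had -2.75, Scd2, a fatty acid desaturase, -2.43, Ptgs1, cyclooxygenase 1, -2.33, and Aldoc, a glycolytic aldolase, -2.02. In lymphocyte-poor members Ptgs1 and Aldoc were at -1.38 and -1.20. Glycolysis and hypoxia genes were lower for 12 of 24 and higher for none (median -0.55), and lower for 11 and higher for 1 in lymphocyte-poor members. Gapdh, a glycolytic enzyme, stood at 2484 CPM in Ctrl and 1198 in BiDT. Oxidative phosphorylation genes were lower for 5 of 22 and higher for 1 (-0.37), and ribosome biogenesis genes lower for 6 of 30 and higher for 1 (-0.31). Ribosome biogenesis genes were lower for 13 of 30 in lymphocyte-poor members and for 11 of 30 in non-cycling macrophages, both above the shares of all genes there.

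Cell cycle genes were modestly lower in BiDT members, and their levels depend on the rule that chose the cells. Licensing genes were lower for 4 and higher for 2 of 20 (median log2 -0.22), synthesis genes lower for 6 of 36 (-0.19), and mitotic kinases and cyclins lower for 13 and higher for 1 of 30 (-0.50). Centromere genes were lower for 4 and higher for 1 of 26 (-0.27), spindle genes lower for 7 of 33 (-0.40) and chromatin genes lower for 9 and higher for 1 of 29 (-0.26). G1/S control genes were lower for 5 and higher for 2 of 24 (-0.11). Beside the 12.9% of all genes called lower, the shares of licensing, synthesis and centromere genes were near the background, and those of mitotic kinases and chromatin genes were above it. In lymphocyte-poor members, beside 17.6% of all genes, more of each list was lower: 13 of 20 licensing, 18 of 36 synthesis, 17 of 30 mitotic kinase, 10 of 26 centromere, 16 of 33 spindle and 13 of 29 chromatin genes. Their medians ran from -1.01 for licensing to -0.44 for chromatin. Among members with at least 12 selecting UMIs they were 0.11 for licensing, -0.04 for synthesis, -0.09 for mitotic kinases, 0.02 for centromere and -0.01 for spindle genes. The levels of these lists were thus nearly equal in both libraries among the cells with the most selecting UMIs. These cells, 55 in BiDT, were not split by lymphocyte RNA. Their log2 ratio of Gzma, a lymphocyte gene, was 5.93, against 5.18 over all members. The part of lymphocyte RNA in their cell cycle levels was not tested.

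Single genes of the cycle followed the lists. Cdk1, the kinase that drives mitosis, stood at 144 CPM in Ctrl and 90.0 in BiDT (log2 -0.68, -0.92 to -0.45). Ccna2 stood at 153 and 87.2 CPM (-0.82), Cdc20, an activator of the anaphase-promoting complex, at 68.3 and 42.7 (-0.68), and Mcm6, a helicase subunit, at 85.2 and 54.6 (-0.64). Mcm5 (0.07) and Pcna, the polymerase clamp (-0.13), differed less, and in lymphocyte-poor members they were at -0.60 and -0.42. Pttg1, securin, was the one mitotic kinase list member called higher (1.43, 1.21 to 1.65). It had nearly the same ratio in non-cycling macrophages (1.52). Ccnd2, cyclin D2, was also higher (1.06). The UMIs of mitotic genes divided by those of replication genes gave 2.94 in Ctrl and 2.70 in BiDT, a log2 ratio of -0.12 (-0.15 to -0.10). That ratio was 0.11 in lymphocyte-poor members, and its direction thus reversed without the cells with lymphocyte RNA. In cycling CD8 T cells the quotient was 2.03 and 2.53.

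Macrophage identity genes went in both directions, while monocyte genes were more often higher than lower, beside 16.4% of all genes called higher. The identity list had 3 genes higher and 6 lower of 22 (median -0.09), with 4 and 3 of 21 in lymphocyte-poor members. C1qa stood at 2030 and 1919 CPM (log2 -0.08), Ms4a7, a gene of mature macrophages, at 137 and 395 CPM (1.53), and Fcgr1, the high-affinity IgG receptor, at 156 and 333 CPM (1.09). Cd14, the lipopolysaccharide co-receptor, was lower (-1.15), as was Cx3cr1, the fractalkine receptor (-1.42, and -0.54 in lymphocyte-poor members). Monocyte genes were higher for 10 of 20 and lower for 1 (median 0.67, and 0.35 in lymphocyte-poor members). Ly6c2 stood at 63.2 and 1201 CPM (4.25, and 3.79 in lymphocyte-poor members), against a ratio of 2.01 in non-cycling macrophages. Plac8 stood at 85.2 and 761 CPM (3.16; 0.89 in non-cycling macrophages). Fn1, fibronectin, was the one lower, at 2822 and 816 CPM (-1.79). Several genes of this list, Ly6c2 among them, are also made by lymphocytes.

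Genes of alternative activation were split, 6 higher and 6 lower of 20 (median 0.10, and -0.06 with TMM scaling). Retnla, the resistin-like protein RELM alpha, stood at 133 CPM in Ctrl and 2486 in BiDT (log2 4.22; 5.03 in lymphocyte-poor and 2.35 in non-cycling cells). Arg1 stood at 3361 and 1351 CPM (-1.31) and Mgl2 at 647 and 195 CPM (-1.73). Ccl8, a chemokine, was higher (2.31). Inflammatory genes were higher for 12 and lower for 5 of 24 (0.62). Cxcl10, an interferon-induced chemokine, stood at 326 and 1085 CPM, Ccl4 at 538 and 1740, and Il6 at 62.2 and 232, the last with a ratio of 1.90 beside 0.47 in non-cycling macrophages. Cxcl9, a chemokine that draws T cells, was lower (-1.19), but its ratio was -0.05 in lymphocyte-poor members. Of the growth factor axis 5 genes were higher and 4 lower of 24, with the median at 0.02 and at -0.15 with TMM scaling. Maf, a factor of macrophage maturation, was higher (1.03), and Csf1r stood at 400 and 290 CPM (-0.46), within the threshold. Genes of lipid-associated macrophages were higher for 7 and lower for 5 of 19 (0.26), a median that was -0.22 among members with at least 12 selecting UMIs.

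**Figure D5:**
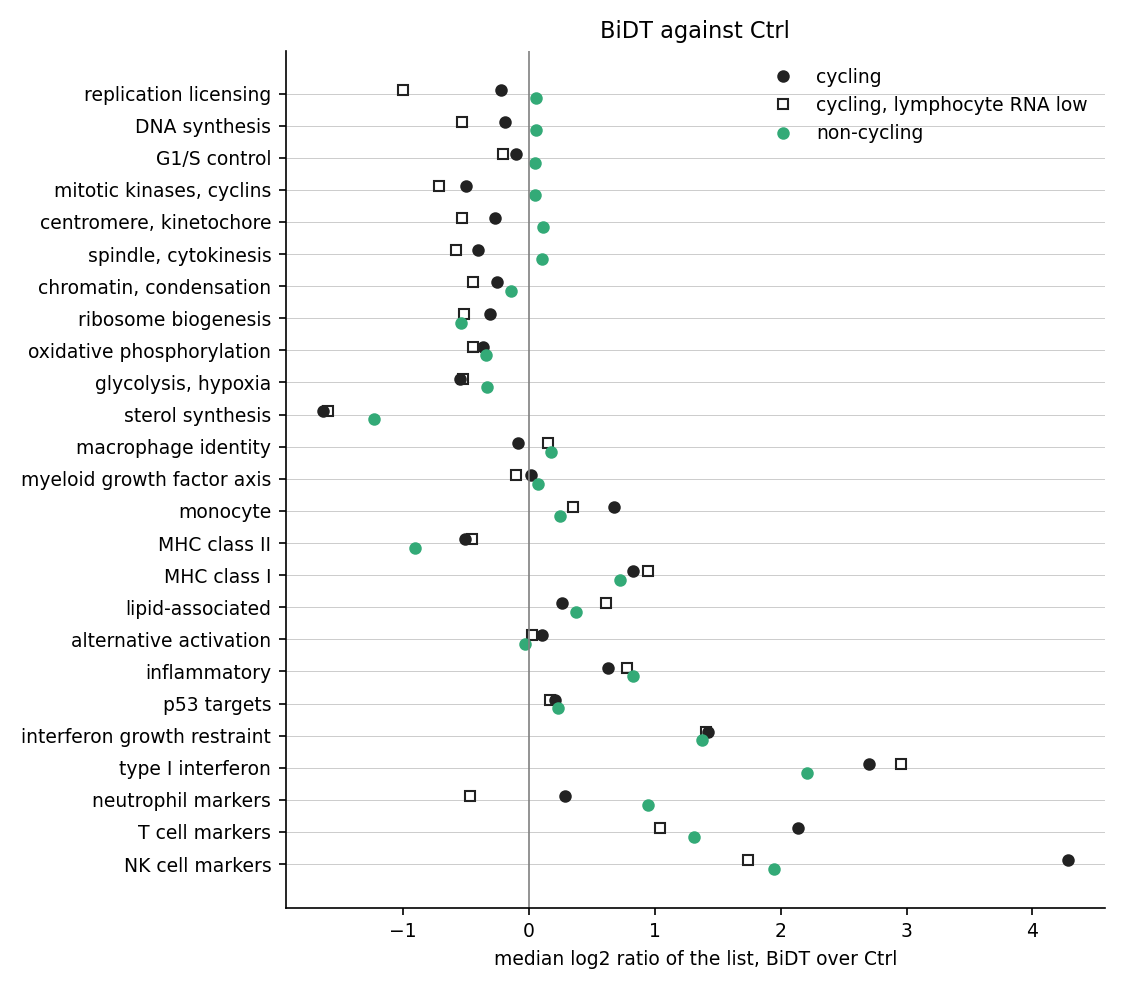
Median log2 ratio of BiDT over Ctrl for each gene list in all cycling, lymphocyte-poor cycling and non-cycling macrophages. In all cycling cells NK cell markers lie farthest to the right (4.28), followed by type I interferon genes (2.70). In lymphocyte-poor cycling cells these lists stand at 1.74 and 2.96. Sterol synthesis genes lie farthest to the left (-1.64), and the cell cycle lists lie between -0.50 and -0.11 in all cycling cells.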

How the data were processed

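The authors deposited raw UMI counts for 32589 genes in each barcode, without normalization. The submitters' processing notes name Cell Ranger 7.1.0 with GRCm39, and a 3' workflow of 10x Genomics was used per the labels. Cell Ranger does not write barcodes as these files do, in 3 parts of 9 bases each, so that platform and counting are uncertain. The members and gene lists were chosen with earlier results of these data known. Of the cells, 32608 in Ctrl and 34423 in BiDT passed the filters on UMIs and mitochondrial share. Shares have exact (Clopper-Pearson) 95% intervals and their ratios a log interval. Counts were summed per class and library, scaled to CPM, and compared as log2 ratios with an exact conditional binomial interval. For sums at 0 the floor was 3 counts. The analysis used scanpy 1.11.5, scipy 1.17.1, numpy 2.4.6 and pandas 2.3.3 under Python 3.11.15, and edgeR 4.0.16 for the trimmed mean (TMM) factors only.

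Other classes were gated on UMIs: T cells by Cd3 genes, NK cells by Ncr1, neutrophils by S100a8, S100a9 and Csf3r, dendritic cells by Flt3 and MHC class II genes. Scrublet's own thresholds called 0 cells, so doublets were not removed except in the alternative that takes out scores of at least 0.15. State markers needed 5 UMIs (C1q, MHC class II), 2 (Ly6c2, Arg1) or 1 (the rest) in the thinned cell. Named genes between libraries were the 12 highest and 12 lowest ratios among genes with at least 50 UMIs over both libraries and 50 CPM in the higher one, whose interval excludes equality. Between cycling and non-cycling cells they were the 10 at each end by the smaller ratio of both libraries, outside the cell cycle lists. Rule, mitochondrial, ribosomal, antigen-receptor, predicted and sex-linked genes were left out, as were genes below 10% of their CPM in another class in both libraries. For each list, members with many UMIs, large ratios or a defining role are named. More than 1 gene shared each of 48 symbols, and 7 listed symbols had no gene in the files. Alternatives changed the thresholds, the depth of thinning, the scaling, the filters on doublets and other lineages, and the minimum of UMIs. Some genes that the rule or the lists would name are not reported here.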

Additional observations from a re-analysis of the deposited data

Results flagged for a closer look

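The cycling share at equal depth went in opposite directions in macrophages and in lymphocytes of the same libraries. The log2 ratio of BiDT over Ctrl was -2.32 in macrophages, 0.86 in T cells, 0.80 in CD8 T cells, which are among the T cells, and 0.77 in NK cells. The lymphocyte shares were counted without the lineage exclusions of the macrophage rule. With 1 library a group the difference between these classes was not tested. Part of the BiDT members carried lymphocyte RNA, and in lymphocyte-poor macrophages, chosen before thinning, the ratio was -3.52.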

How the results depend on the processing

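The lower cycling share of BiDT macrophages kept its direction in all 12 alternatives over all UMIs (log2 -2.94 to -1.40) and all 14 at equal depth (-3.52 to -1.61). Over all UMIs it was -1.40 with at least 2 selecting UMIs, -2.52 with 5 and -2.94 with 12, -2.29 without cells of high doublet score, -2.27 without cells holding a UMI of 6 further lineage genes (Cd79a, Flt3, Csf3r, Cpa3, Col1a1 and Krt8) and -2.83 in lymphocyte-poor cells. At equal depth it was -1.61 with 2 selecting UMIs, -2.98 with at least 2 UMIs of Csf1r and -3.52 in lymphocyte-poor cells chosen before thinning. Within states thinned to 4000 UMIs, the ratio was -0.22 (-0.65 to 0.22) in C1q-negative and -2.72 in Arg1-positive cells. The count of genes higher in BiDT was 9286 with no minimum of UMIs and 1113 in thinned cells, against 1821, and that of lower genes stayed between 1303 and 2089.

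The log2 ratio of mitotic to replication UMIs was the least stable. It was -0.18 in thinned cells, -0.052 with 5 selecting UMIs, -0.048 without high doublet scores, -0.033 with 12 selecting UMIs, 0.042 without the 6 lineage genes and 0.11 in lymphocyte-poor cells. The median of centromere genes was 0.025 with 12 selecting UMIs, and that of lipid-associated genes -0.12 with 5 and -0.22 with 12. The causes of these moves were not tested. The settings of 12 UMIs, lymphocyte-poor cells and Malat1 at most 1% of UMIs were chosen after seeing the data. No paired analysis was possible because each group is 1 library. With 199 BiDT members, and 38 at equal depth, states of the BiDT cells rest on few cells.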
